A study of Mus musculus with 8 samples.

Results

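Fibroblast growth factor (FGF) signalling was examined in the embryonic mouse cerebral cortex with and without Taf8, a subunit of the general transcription factor TFIID. The rule for the gene set uses names and annotation, and it was written with earlier results of these data known. It takes protein-coding genes of the Fgf, Fgfr, Spry and Spred families, together with Etv1, Etv4, Etv5 and Dusp6. This gave 39 genes of the 27179 in the count table. They comprise 18 secreted ligands, 4 intracellular FGF homologous factors, 5 receptor genes including the decoy Fgfrl1, 8 genes of feedback inhibitors and 3 ETV transcription factors. The remaining gene, Fgfr1op2, matched by its name only and encodes no receptor.

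Polyadenylated RNA of cortex was sequenced without strand information from 8 embryos, 4 with intact Taf8 (genotype Taf8 +/+) and 4 in which Taf8 was deleted (genotype Taf8 -/lox, 1 null and 1 loxP-flanked allele). For the recombinase, its driver and the embryonic stage, the sources used here give no detail. Intact and deleted embryos share no animal number before the point, so the genotype cannot be told apart from whatever that number marks. Each library held 39590959 to 44788200 counts. Taf8 itself had 1222 to 1491 counts in the intact and 14 to 30 in the deleted libraries, so the libraries carried the Taf8 level of their labels.

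FGFs are secreted proteins that bind receptor tyrosine kinases together with heparan sulfate and activate the RAS and ERK kinase cascade. The cascade switches on its own inhibitors, the Sprouty, Spred and Dusp6 proteins, and the transcription factors Etv4 and Etv5, whose mRNAs are widely used as readouts of FGF activity. In the developing cortex, FGFs from the rostral midline pattern the cortical areas, and FGF receptors maintain the radial glia, the progenitors of cortical neurons. The FGF homologous factors share the fold of the ligands, but stay inside the cell and bind voltage-gated sodium channels.

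Of the 39 genes, 30 passed the filter on low counts and were tested, and 28 of them reached the filter's cutoff of 0.232 CPM, the usual depth-scaled unit of counts, in all 8 libraries. With the quasi-likelihood F-test of edgeR, p-values adjusted by Benjamini-Hochberg over all 16074 genes tested and a threshold of 0.05, 8 rose and 13 fell in Taf8-deleted cortex. Over all genes tested, 63.5% passed the same threshold, 30.6% upward and 32.9% downward, so 21 called genes of 30 (70.0%) is near this background. A change of at least 1.5-fold was called for 9 of the 30, against 20.6% of all genes. The libraries of the 2 groups did not overlap for 20 of the 30, against 57.7% of all genes. The median log2 fold change was -0.07, with 0.000 over all genes, and the median absolute log2 fold change was 0.44, with 0.27 over all genes. The genes thus moved in both directions, and the changes within each family are described by role. In these bulk samples, fewer cells of a type and less RNA per cell cannot be told apart.

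**Figure D1:**
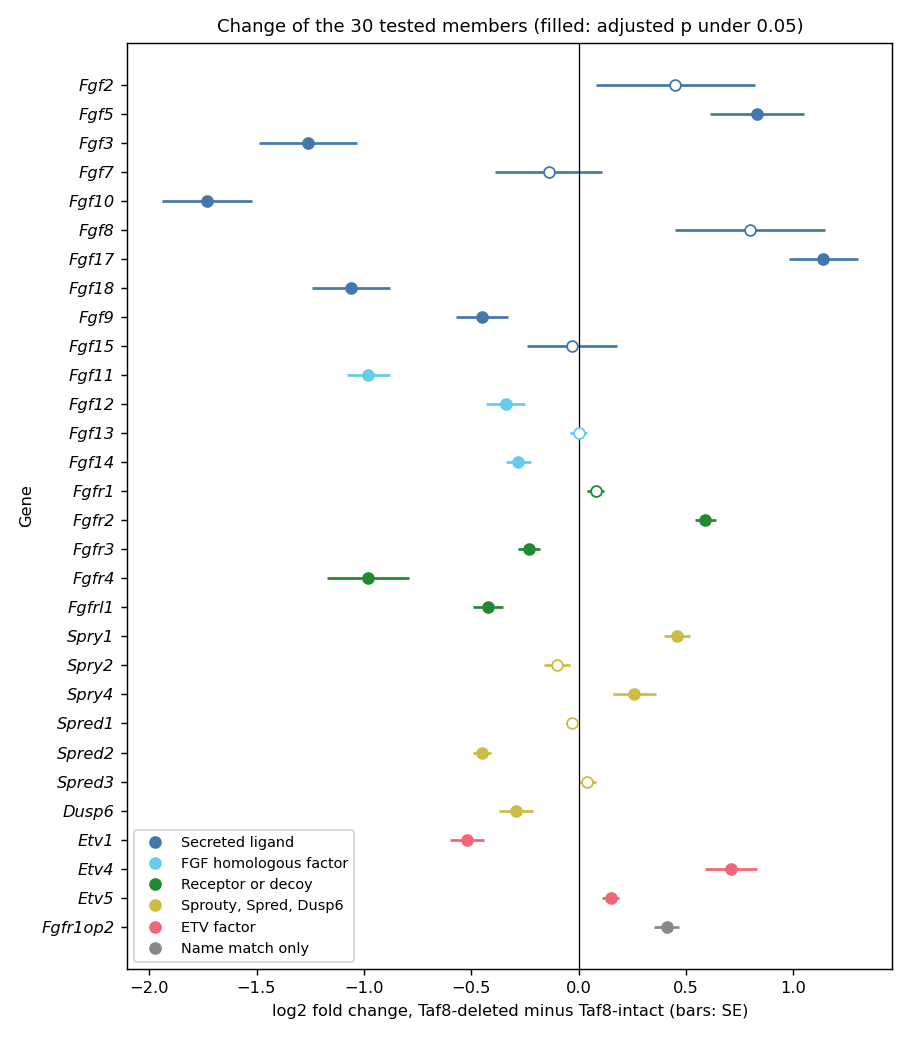
Log2 fold change (Taf8-deleted minus Taf8-intact, x axis) of the 30 tested genes (y axis), coloured by role, with the standard error as bars and filled points for adjusted p under 0.05. Fgf10, Fgf3, Fgf18, Fgf11 and Fgfr4 lie farthest to the left, and Fgf17, Fgf5, Fgf8 (not called), Etv4 and Fgfr2 farthest to the right.

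Levels between genes were compared as RPKM, the TMM-scaled CPM per kilobase of the gene length in the deposited table. In intact cortex the highest levels were those of Fgf13 with 40.7 ± 0.739 RPKM, Fgfr3 with 39.5 ± 2.60 and Fgfr1 with 37.8 ± 0.369 (SD, n = 4 each). The first and the second did not differ beyond their spread. Spred1 followed with 26.8 ± 0.721, and Fgfr2 with 17.5 ± 1.03, close to Fgfr1op2, Spred2 and Fgf11 with 16.9 ± 1.504, 16.5 ± 0.669 and 15.97 ± 1.04. Among the secreted ligands Fgf15 stood far above the others, with 14.6 ± 3.65 RPKM against 2.24 ± 0.447 for Fgf18, 1.804 ± 0.535 for Fgf3 and 1.30 ± 0.168 for Fgf17. Fgf18 and Fgf3, and Fgf3 and Fgf17, did not differ beyond their spread. The deposited length of Fgf2, 695 bases, is far shorter than its 6782 exonic bases in GENCODE M21, so that levels per length depend on the annotation behind the counting.

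**Figure D2:**
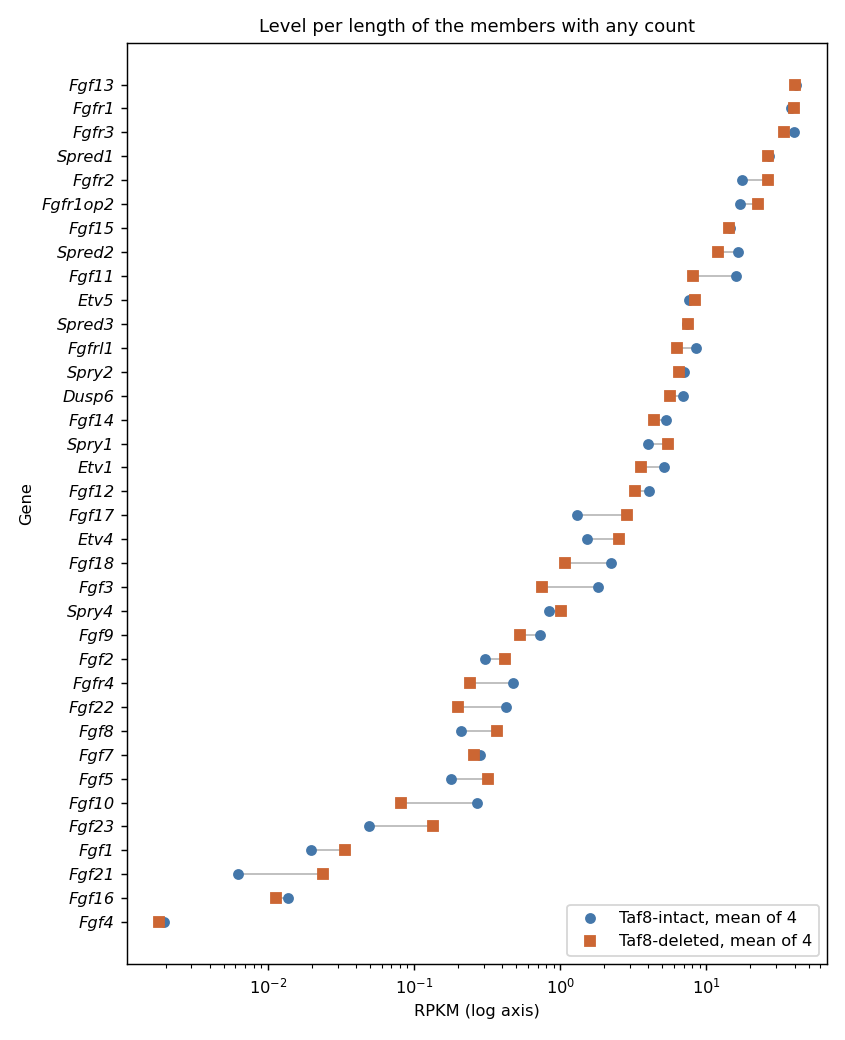
Mean RPKM (x axis, log scale) of the 36 genes with any count (y axis), with circles for the 4 intact and squares for the 4 deleted libraries and a line joining both means. Fgf13, Fgfr1, Fgfr3, Spred1 and Fgfr2 are at the top, and the longest lines among tested genes belong to Fgf10, Fgf3, Fgf17 and Fgf18.

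The ligands of the FGF8 subfamily, which are made at the rostral midline of the forebrain, did not move together. Fgf17 (gene ID 14171; GRCm38 chromosome 14, 70636203 to 70642268), known for its part in patterning the frontal cortex, was at 2.28, 2.38, 1.78 and 2.35 CPM in the intact and 5.85, 5.51, 3.68 and 4.29 CPM in the deleted libraries (replicates 1 to 4). Every deleted library was above every intact one, and replicates 1 and 2 were the highest. Fgf17 rose by 1.14 ± 0.16 (log2 ± SE), with adjusted p = 5.86e-05 (edgeR quasi-likelihood F-test, Benjamini-Hochberg). Fgf18 (gene ID 14172; chromosome 11, 33116970 to 33147400), which is also expressed by cortical neurons, was at 2.51, 1.98, 2.17 and 3.08 CPM in the intact and 1.31, 1.18, 0.881 and 1.30 CPM in the deleted libraries. The groups did not overlap, and Fgf18 fell by 1.06 ± 0.18 (adjusted p = 2.78e-04). Within each library, the ratio of Fgf17 to Fgf18 RPKM, which does not depend on the scaling between libraries, was 0.490 to 0.774 in the intact and 2.13 to 3.01 in the deleted libraries. Fgf8, the founding member of the subfamily, was scarce, with 8 to 15 counts in the intact and 12 to 34 in the deleted libraries. Its log2 fold change of 0.80 ± 0.35 was not called (adjusted p = 0.064), and it reached the filter's cutoff in only 2 of the 4 intact libraries. Summed markers of meninges and fibroblasts were highest in deleted replicates 2 and 3, with 135 and 162 CPM, where Fgf17 was at 5.51 and 3.68 CPM. In deleted replicate 4, with 33.0 CPM of these markers, Fgf17 was at 4.29 CPM. Their part in the ligand levels was not tested.

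The FGF7 subfamily ligands Fgf10 and Fgf3 fell. Fgf10 (gene ID 14165; chromosome 13, 118714699 to 118792573), which is known to time the passage of neuroepithelial cells to radial glia in the cortex, was at 1.26, 1.01, 1.34 and 1.30 CPM in the intact and 0.307, 0.318, 0.361 and 0.499 CPM in the deleted libraries. The groups were well apart, and its fall of 1.73 ± 0.21 on the log2 scale (adjusted p = 1.57e-05) was the largest of the 30 genes. The deleted libraries held only 14 to 20 counts of Fgf10. Fgf3, a ligand of the forebrain midline and the otic region, was at 2.79, 2.47, 1.31 and 2.04 CPM in the intact and 0.789, 1.09, 0.768 and 0.948 CPM in the deleted libraries. The lowest intact library, replicate 3, was still above every deleted one, and Fgf3 fell by 1.26 ± 0.23 (adjusted p = 4.24e-04). Fgf7, a ligand made by mesenchymal cells, had a log2 fold change of -0.14 ± 0.25 (adjusted p = 0.645).

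Fgf3 and Fgf15 lie side by side on chromosome 7, with Fgf4 between them, and only the first of them was called. In GRCm38, Fgf3 spans 144838612 to 144843348, Fgf4 144861386 to 144865245 and Fgf15 144896532 to 144900953, all on the plus strand. Fgf15, the mouse counterpart of human FGF19, is expressed by cortical progenitors and is known to oppose Fgf8 in patterning. It was at 30.8, 31.5, 17.2 and 26.1 CPM in the intact and 20.1, 29.5, 25.1 and 28.6 CPM in the deleted libraries. The groups overlapped widely, intact replicate 3 was the lowest of all, and the log2 fold change was -0.03 ± 0.21 (adjusted p = 0.901). The ratio of Fgf3 to Fgf15 RPKM was 0.116 to 0.137 in the intact and 0.046 to 0.059 in the deleted libraries. Both genes were thus low together in intact replicate 3, and their ratio separated the groups. The antisense gene Gm26793 overlaps 24.9% of the exonic bases of Fgf15, and without strand their reads are counted alike. Fgf4 had at most 1 count in any library.

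Of the other ligands, Fgf9 fell and Fgf5 rose. Fgf9, a ligand made by neurons and glia, was at 2.56, 3.16, 3.21 and 3.11 CPM in the intact and 2.34, 2.31, 1.99 and 2.14 CPM in the deleted libraries, with a log2 fold change of -0.45 ± 0.12 (adjusted p = 0.00664). The groups did not overlap, but intact replicate 1 lay nearer to the deleted libraries than to the other intact ones. Fgf5, best known as a regulator of the hair cycle, rose by 0.83 ± 0.22 (adjusted p = 0.00505) from a low level of 16 to 24 to one of 28 to 41 counts. Fgf2, a mitogen of cortical progenitors, had 6 to 13 counts in the intact and 8 to 20 in the deleted libraries and was not called, with 0.45 ± 0.37 (adjusted p = 0.307). It overlaps Nudt6 on the opposite strand.

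Promoter windows of 4 genes are shown because these genes moved in opposite directions: the ligands Fgf10 and Fgf18 and the decoy receptor Fgfrl1 fell, and the inhibitor Spry1 rose. Each window runs from 250 bases before to 50 bases after the annotated start (RefSeq, GRCm38.p6), 5′ to 3′ on the strand of the gene: chr13:118714449-118714748 on the plus strand for Fgf10, chr11:33147351-33147650 on the minus strand for Fgf18, chr5:108693979-108694278 on the plus strand for Fgfrl1 and chr3:37639697-37639996 on the plus strand for Spry1. Capitals mark matches to any of 4 motifs, searched on both strands. The GC box was spelled GGGCGG. The CCAAT box was searched by the letters in its name. The ETS site, the kind of site that ETV factors bind, was spelled CCGGAAG. The TATA box, which positions the start of some genes, was spelled TATAAA. No motif contains another.
Fgf10: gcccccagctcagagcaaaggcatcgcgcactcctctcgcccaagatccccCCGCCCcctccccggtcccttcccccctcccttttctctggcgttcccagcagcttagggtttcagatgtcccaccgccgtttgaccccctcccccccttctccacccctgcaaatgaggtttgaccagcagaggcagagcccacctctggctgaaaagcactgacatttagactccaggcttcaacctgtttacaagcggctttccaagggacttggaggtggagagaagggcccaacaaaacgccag
Fgf18: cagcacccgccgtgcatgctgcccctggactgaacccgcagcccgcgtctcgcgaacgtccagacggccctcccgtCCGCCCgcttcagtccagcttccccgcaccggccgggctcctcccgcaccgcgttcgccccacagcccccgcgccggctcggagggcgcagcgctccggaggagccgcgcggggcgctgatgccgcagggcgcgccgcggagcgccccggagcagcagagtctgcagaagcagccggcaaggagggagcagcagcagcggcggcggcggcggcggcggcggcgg
Fgfrl1: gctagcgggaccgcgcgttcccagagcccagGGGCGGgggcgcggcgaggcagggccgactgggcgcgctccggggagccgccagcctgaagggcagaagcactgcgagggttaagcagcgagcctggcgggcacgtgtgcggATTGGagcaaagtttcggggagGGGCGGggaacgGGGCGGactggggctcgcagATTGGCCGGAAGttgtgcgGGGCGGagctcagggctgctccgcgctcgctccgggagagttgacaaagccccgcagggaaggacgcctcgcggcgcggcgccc
Spry1: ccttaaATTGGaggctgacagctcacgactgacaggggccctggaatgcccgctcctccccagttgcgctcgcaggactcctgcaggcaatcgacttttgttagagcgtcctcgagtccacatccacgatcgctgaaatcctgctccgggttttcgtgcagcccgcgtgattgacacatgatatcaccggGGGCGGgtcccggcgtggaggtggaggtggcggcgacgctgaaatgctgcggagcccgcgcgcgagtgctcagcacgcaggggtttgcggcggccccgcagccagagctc
Fgf10 and Fgf18 held 1 GC box each, 199 and 174 bases before the start. Fgfrl1 held 4 GC boxes, 2 CCAAT boxes and 1 ETS site, which begins 48 bases before the start and directly follows a CCAAT box, so that their capitals run together. Spry1 held 1 GC box and 1 CCAAT box. None of these 4 windows held a TATA box.

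A window was found for 29 of the 39 genes, some with several starts, which gave 39 windows. No entry was found for Fgf1, Fgf8, Fgf15, Fgf16, Fgf17, Fgf20, Fgfr1, Spry3, Spry4 and Etv4. The GC box was in 64.1% of the 39 windows, belonging to 20 of the 29 genes, and in 35.7% of all 32851 windows of the table. Windows of the same gene are not independent, and the windows of the table were not matched for gene type or base composition. The CCAAT box was in 38.5% against 37.4%, the TATA box in 10.3% against 13.6%, and the ETS site in 2.56% against 8.86%. The TATA box windows belonged to Fgf5, Fgf13, Fgf21 and Etv1, and the ETS site window to Fgfrl1. Such matches are letters in a window and do not show that a factor binds there.

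The intracellular FGF homologous factors fell, apart from the most abundant one. Fgf11 (gene ID 14166; chromosome 11, 69796068 to 69802944) was at 10.04, 10.4, 11.4 and 11.4 CPM in the intact and 6.27, 4.49, 5.67 and 5.51 CPM in the deleted libraries, and fell by 0.98 ± 0.10 on the log2 scale (adjusted p = 3.23e-06 by the edgeR quasi-likelihood F-test). Its groups were clearly apart. Fgf12, a modulator of sodium channel inactivation, was at 13.9, 11.3, 15.04 and 13.4 CPM in the intact and 11.3, 10.1, 10.01 and 11.0 CPM in the deleted libraries. Intact replicate 2 lay just above the highest deleted library, and the log2 fold change was -0.34 ± 0.09 (adjusted p = 0.00431). The Fgf12 call was lost when deleted replicates 2 and 3 were left out together (adjusted p = 0.0608). Fgf14, a gene linked with hereditary ataxia, was at 17.0, 18.2, 20.2 and 17.4 CPM in the intact and 15.1, 14.4, 14.8 and 15.6 CPM in the deleted libraries, without overlap, and fell by 0.28 ± 0.06 (adjusted p = 0.00194). Fgf13, which also stabilises microtubules in migrating neurons, was at 99.9 to 104 CPM in the intact and 96.2 to 106 CPM in the deleted libraries, and was not called (adjusted p = 0.929). Markers of postmitotic neurons were lower in the same libraries: 7 of 8 fell and none rose, and their summed level was 6166 to 6763 CPM in the intact and 4797 to 5204 CPM in the deleted libraries. Their part in the lower factor mRNAs was not tested.

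**Figure D3:**
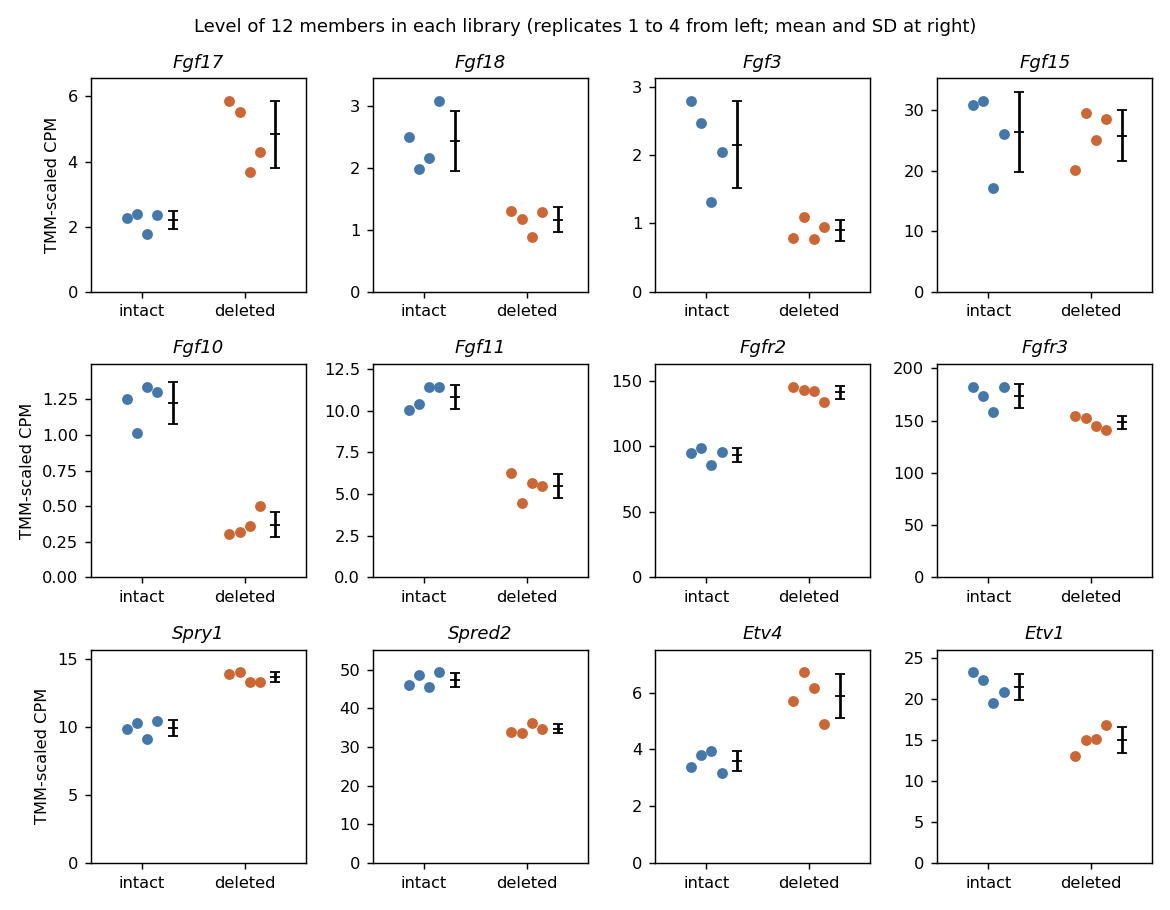
TMM-scaled CPM (y axis, from 0) of 12 genes in each intact and deleted library (x axis; replicates 1 to 4 from left), with the mean and SD beside the points. Only Fgf15 has overlapping groups in these panels.

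Among the receptors, the mRNA of Fgfr2 rose while those of Fgfr3, Fgfr4 and Fgfrl1 fell. Fgfr2 (gene ID 14183; chromosome 7, 130162451 to 130266808) was at 94.5, 98.4, 85.6 and 95.5 CPM in the intact and 145, 143, 142 and 134 CPM in the deleted libraries. All deleted libraries were far above the intact ones, and Fgfr2 rose by 0.59 ± 0.05 on the log2 scale, a 1.51-fold change (adjusted p = 3.28e-07 by the edgeR quasi-likelihood F-test). Fgfr3 (gene ID 14184; chromosome 5, 33721724 to 33737068), which is graded across the progenitor layer of the cortex, was at 182, 173, 158 and 182 CPM in the intact and 154, 153, 145 and 141 CPM in the deleted libraries. The groups came close at intact replicate 3 without overlapping, and the log2 fold change was -0.23 ± 0.05 (adjusted p = 0.00133). Fgfr1, a receptor needed for formation of the olfactory bulbs, was at 187 to 191 CPM in the intact and 189 to 209 CPM in the deleted libraries and was not called (0.08 ± 0.04, adjusted p = 0.089). Fgfr4, little expressed in this tissue, was at 1.19, 1.91, 1.53 and 1.40 CPM in the intact and 0.832, 0.635, 0.746 and 0.848 CPM in the deleted libraries, and fell by 0.98 ± 0.19 (adjusted p = 6.96e-04). Fgfrl1, a receptor without a kinase domain that binds FGFs, was at 24.1, 23.6, 19.4 and 22.5 CPM in the intact and 17.3, 15.4, 18.0 and 16.2 CPM in the deleted libraries. Its groups did not overlap, and it fell by 0.42 ± 0.07 (adjusted p = 3.19e-04).

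The makeup of the receptor mRNA pool was therefore shifted, while its summed level relative to the other mRNAs was similar. The absolute amount of mRNA was not measured, and a change of all mRNAs together would not show after this scaling. Summed over the 4 kinase receptors and the decoy, the level was 104 ± 4.52 RPKM in the intact and 107 ± 3.51 RPKM in the deleted libraries (SD, n = 4 each). Fgfr2 made up 17.9% to 19.1% of the summed RPKM of Fgfr1, Fgfr2, Fgfr3 and Fgfr4 in the intact and 25.9% to 26.8% in the deleted libraries. Fgfr3 made up 40.03% to 42.4% and 32.5% to 34.6%, respectively. The Fgfr1 share was 39.7% ± 1.26 against 39.8% ± 1.119 (SD, n = 4 each) and overlapped. The ratio of Fgfr2 to Fgfr3 RPKM was 0.426 to 0.468 in the intact and 0.769 to 0.807 in the deleted libraries, a narrow range within each group. G630022F23Rik on the opposite strand overlaps 13.9% of the exonic bases of Fgfr3, and Ctbp2 shares 3.04% of those of Fgfr2. Part of the reads of these 2 receptor genes may therefore stem from the overlapping genes. Markers of radial glia, which carry these receptors, moved in both directions: 6 of 10 rose and 3 fell. Their summed level was 2617 to 2912 CPM in the intact and 3296 to 3532 CPM in the deleted libraries. The sum hides opposite changes. Mean Nes rose from 682 to 1227.5 CPM and mean Vim from 602 to 910 CPM. Mean Fabp7 fell from 414 to 290 CPM, Ptprz1 from 514 to 350 CPM and Slc1a3 from 145 to 115 CPM. The part of radial glia in the receptor levels was not tested.

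**Figure D4:**
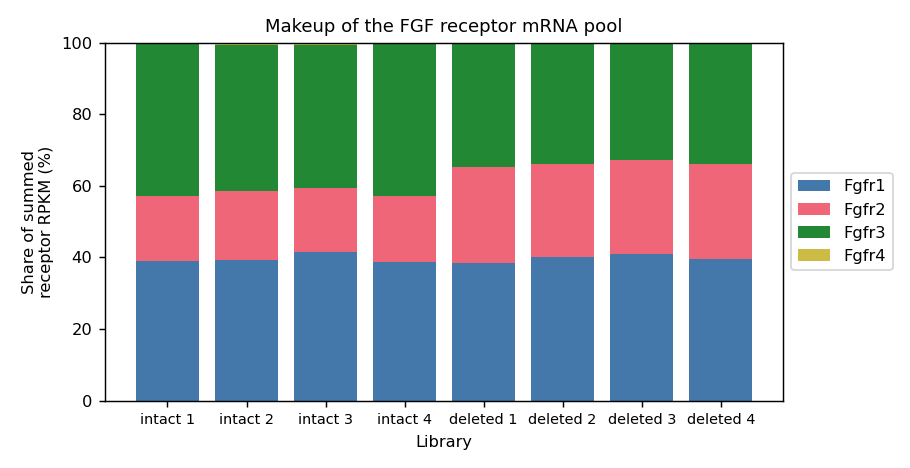
Share of each kinase receptor gene in the summed RPKM of Fgfr1 to Fgfr4 (y axis, percent) in each library (x axis), as stacked bars. The Fgfr2 segment is larger and the Fgfr3 segment smaller in all 4 deleted libraries, and Fgfr4, under 1%, is barely visible.

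The feedback inhibitors split between rises and falls. Spry1 (gene ID 24063; chromosome 3, 37639947 to 37644599), a Sprouty protein that blocks RAS and ERK activation below the receptor, was at 9.88, 10.3, 9.10 and 10.4 CPM in the intact and 13.9, 14.0, 13.4 and 13.3 CPM in the deleted libraries. The groups did not overlap, and Spry1 rose by 0.46 ± 0.06 on the log2 scale (adjusted p = 3.84e-05 by the edgeR quasi-likelihood F-test). A gene model of unclear status on the opposite strand, Gm42922, covers 24.4% of its exonic bases. Spry4 was at 4.53, 3.58, 3.67 and 3.68 CPM in the intact and 4.47, 4.79, 4.77 and 4.44 CPM in the deleted libraries. Intact replicate 1 lay among the deleted libraries, and the call (0.26 ± 0.10, adjusted p = 0.0454) was lost in 9 of 18 alternatives, with adjusted p of 0.012 to 0.233 over all of them. Spry2, the most abundant Sprouty gene per length, had 12.6 to 14.5 CPM in the deleted and 13.6 to 15.1 CPM in the intact libraries and was not called (-0.10 ± 0.06, adjusted p = 0.157). The Spry2 share of the Sprouty RPKM was 56.8% to 60.9% in the intact and 47.8% to 52.3% in the deleted libraries.

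Among the Spred genes, whose proteins bring the RAS inhibitor neurofibromin to the membrane, the fall was in Spred2. Spred2 (gene ID 114716; chromosome 11, 19924442 to 20024026) was at 45.9, 48.6, 45.4 and 49.3 CPM in the intact and 34.0, 33.7, 36.3 and 34.7 CPM in the deleted libraries, and fell by 0.45 ± 0.04 (adjusted p = 1.80e-06). The groups were clearly apart. Spred1 and Spred3 had log2 fold changes of -0.03 ± 0.03 (adjusted p = 0.394) and 0.04 ± 0.04 (adjusted p = 0.395), and their groups overlapped. Dusp6 (gene ID 67603; chromosome 10, 99263231 to 99267489), the phosphatase that inactivates ERK, was at 16.6, 22.5, 19.4 and 18.5 CPM in the intact and 14.8, 16.2, 16.0 and 16.2 CPM in the deleted libraries. Intact replicate 1 lay just above the deleted libraries, and the log2 fold change was -0.29 ± 0.08 (adjusted p = 0.00897).

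The ETV transcription factors, which act downstream of FGF, also moved in different directions. Etv4 (gene ID 18612; chromosome 11, 101769747 to 101785310) was at 3.39, 3.82, 3.94 and 3.18 CPM in the intact and 5.72, 6.72, 6.17 and 4.89 CPM in the deleted libraries. The groups did not overlap, and Etv4 rose by 0.71 ± 0.12 on the log2 scale (adjusted p = 1.91e-04 by the edgeR quasi-likelihood F-test). Etv5, the most abundant of the 3 per length, was at 29.6, 27.5, 28.3 and 30.1 CPM in the intact and 30.5, 32.5, 32.9 and 31.9 CPM in the deleted libraries, a rise of 0.15 ± 0.04 (adjusted p = 0.0126). The highest intact and the lowest deleted library were close, and the Etv5 call was lost without deleted replicates 2 and 3 (adjusted p = 0.125). Etv1 (gene ID 14009; chromosome 12, 38780082 to 38870483), which also marks layer 5 projection neurons, was at 23.3, 22.3, 19.6 and 20.9 CPM in the intact and 13.03, 15.02, 15.1 and 16.9 CPM in the deleted libraries. It fell by 0.52 ± 0.08 (adjusted p = 9.91e-05) without overlap. The ratio of Etv4 to Etv1 RPKM was 0.263 to 0.363 in the intact and 0.524 to 0.808 in the deleted libraries, and deleted replicate 4 was nearest to the intact ones.

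The tested feedback inhibitor and ETV genes did not share a direction. Spry1, Spry4, Etv4 and Etv5 were called higher, Spred2, Dusp6 and Etv1 lower, and Spry2, Spred1 and Spred3 were not called. The calls of Spry4 and Etv5 were lost in some alternatives. Fgfr1op2, named after its fusion to FGFR1 in leukaemia, was at 50.2, 49.1, 50.1 and 41.4 CPM in the intact and 61.5, 65.1, 61.0 and 66.7 CPM in the deleted libraries, and rose by 0.41 ± 0.06 (adjusted p = 8.54e-05). Its groups did not overlap.

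The 9 genes under the filter were Fgf1, Fgf4, Fgf6, Fgf16, Fgf20, Fgf21, Fgf22, Fgf23 and Spry3. Fgf6, Fgf20 and Spry3 had no counts in any library, which allows up to 3 counts per library, or 0.0670 to 0.0758 CPM of the library total. This bound holds only if reads of these genes can be mapped and counted, which was not tested. Fgf23, a hormone of phosphate balance made mainly in bone, had 3, 5, 4 and 3 counts in the intact and 14, 14, 10 and 5 in the deleted libraries. Without the filter its adjusted p was 0.0103. Fgf22, a presynaptic organiser, had 3 to 13 counts in the intact and 2 to 6 in the deleted libraries, and the remaining 4 genes at most 8 counts in any library.

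Other genes of the pathway were taken from 6 lists. Of 91 listed genes 88 were tested, and 24 rose and 30 fell, or 61.4% called in all. This is near the background of 63.5% over all genes tested, with 30.6% upward and 32.9% downward, against which the counts of the single lists are to be read. In the cascade from receptor to ERK, 3 of 23 rose and 8 fell. The kinase genes Mapk3, which encodes ERK1, and Rps6ka2 fell by 0.56 ± 0.05 and 0.41 ± 0.03 (log2 ± SE), while the kinase gene Rps6ka1 and the phosphatase gene Ptpn11 rose by 0.39 ± 0.05 and 0.13 ± 0.03. The changes within the cascade were all under 1.5-fold.

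Among other negative regulators of RAS and ERK, 3 of 9 rose and 4 fell. Dusp4, an ERK phosphatase of the nucleus, rose by 0.49 ± 0.06 and Il17rd, a membrane antagonist of FGF receptors, by 0.32 ± 0.06, whereas the phosphatase gene Dusp7 fell by 0.28 ± 0.05. Among co-receptor, heparan sulfate and carrier genes, 5 of 26 tested rose and 7 fell. The glypican gene Gpc2 and the sulfotransferase genes Hs6st1 and Hs6st2 fell by 0.55 ± 0.04, 0.40 ± 0.03 and 0.38 ± 0.04. The epimerase gene Glce and the sulfotransferase gene Hs2st1, which act on the same polysaccharide, rose by 0.50 ± 0.05 and 0.44 ± 0.05. The mRNAs of the named 6-O- and 2-O-sulfotransferases thus moved in opposite directions. The sulfatase gene Sulf2 also fell, by 0.58 ± 0.11. The other sulfatase gene, Sulf1, was not called (0.80 ± 0.67), with 10.6 to 85.0 CPM in the deleted libraries. The 2 called changes of at least 1.5-fold in this list were rises, of Sdc4 by 1.11 ± 0.12 and of the scarce Klb by 1.59 ± 0.36. Sulfation itself was not measured. For Gpc2, Hs6st1, Hs6st2, Glce and Hs2st1 the adjusted p (edgeR) ranged from 5.51e-07 for Gpc2 to 4.37e-06 for Hs2st1. It was 0.00232 for Sulf2, 0.341 for Sulf1, 5.78e-06 for Sdc4 and 0.00191 for Klb.

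All 8 tested transcripts of the ERK-responsive list were called, 5 higher and 3 lower. The early genes Egr1 and Ier2 rose by 1.71 ± 0.10 and 1.03 ± 0.08, and the AP-1 gene Fosl2 fell from 25.2 ± 4.39 to 7.76 ± 1.17 CPM (SD, n = 4 each). Of 11 other ETS factor genes, 5 rose and 5 fell. Elf1 rose from 14.6 ± 0.910 to 35.4 ± 1.89 CPM and the ETS repressor gene Erf by 0.63 ± 0.06, and Elk1, a substrate of ERK, fell by 0.56 ± 0.04. Of 11 patterning genes linked with Fgf8, 3 rose and 3 fell: Nr2f1, which FGF8 represses in the rostral cortex, fell by 0.44 ± 0.04, and Pax6 rose by 0.48 ± 0.07. Rps6ka1, Gpc2, Hs6st1, Glce, Sulf2, Elf1, Elk1 and Nr2f1 share exonic bases with another GENCODE gene, so part of their reads may stem from that gene.

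**Figure D5:**
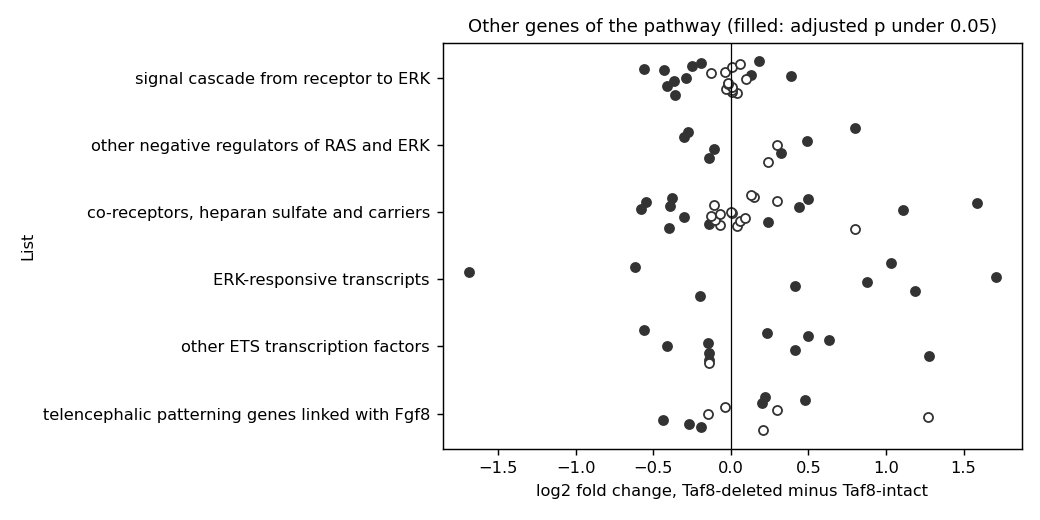
Log2 fold change (Taf8-deleted minus Taf8-intact, x axis) of the 88 tested genes of the 6 pathway lists (y axis), with filled points for adjusted p under 0.05. The cascade list stays within 1.5-fold of 0, and the ERK-responsive list spreads widest, from -1.69 for Fosl2 to 1.71 for Egr1.

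Markers of tissue and carry-over were read beside these results. All 8 markers of cortical identity were present in every library and all fell, with Emx1 at 46.2 to 54.4 CPM in the deleted and at least 56.1 CPM in the intact libraries. Markers of meninges and fibroblasts, cells that make several FGFs, were unevenly present: 6 of 8 tested rose, and their summed level was 21.8 to 46.4 CPM in the intact, 76.0, 135 and 162 CPM in deleted replicates 1 to 3 and 33.0 CPM in deleted replicate 4. In deleted replicate 4, whose meningeal level lay within the intact range, 7 of the 8 FGF genes called higher were above every intact library and all 13 called lower were below every intact library. The exception was Spry4, at 4.44 CPM there against 4.53 CPM in intact replicate 1. The calls themselves used this library, and 20 of the 30 tested FGF genes had groups without overlap, against 57.7% of all genes. The count therefore restates that separation and is no separate test of the meningeal part. Of the choroid plexus markers none of 6 was called by edgeR, but their summed level was 926 CPM in deleted replicate 1, 300.2 CPM in intact replicate 4 and 14.97 to 158 CPM in the others. Endothelial markers all rose, 7 of 7, from a summed level of 137 to 146 CPM to one of 162 to 201 CPM, and all 6 pericyte markers rose, from 86.9 to 88.3 CPM to 103 to 127 CPM. Markers of ventral telencephalon and interneurons were lower, with 7 of 9 falling and 1 rising and a summed level of 793 to 897 CPM in the intact and 582 to 622 CPM in the deleted libraries. No marker on these lists was at 0 in all libraries, and the part of these cells in the FGF gene levels was not tested.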

How the data were processed

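RNA of 8 embryonic cortices was sequenced, and the deposited table holds whole-number read counts per gene. Per the submitters' processing notes, which give no roles, bcl2fastq 1.8.4, Subread 1.5.0, featureCounts and build mm10 were used. The deposited table also gives a gene length, from the authors, used for RPKM. Groups came from the genotype labels. Counts as deposited were fitted with edgeR 4.0.16 in R 4.3.3: TMM scaling, filterByExpr (10 counts, about 0.232 CPM), robust quasi-likelihood, 4 against 4 embryos, and Benjamini-Hochberg adjustment over 16074 genes at 0.05. SE is the absolute log2 fold change over the square root of F. Depth was 39590959 to 44788200 counts, and 3 counts equal 0.0670 to 0.0758 CPM. The p-values measure the spread between these embryos.

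Members and gene lists were chosen with earlier results of these data known. All 39 members are named, in each role up to 4 called ones of at least 1 CPM with the value in every library, and some others too. Of each pathway list the 3 called genes with the smallest p are named, and up to 2 in the opposite direction. Sulf1, Sulf2, Sdc4 and Klb are named outside this rule, with their values known. The Emx1 level was added after its values were seen. Some genes that this rule names are not reported here. Rows without a symbol in the gene name table (1904 of 27179) held 0.490% to 1.64% of counts and stayed in the fit. The fit was run on simulated counts with a common dispersion and few changed genes. That setting differs from these data, so it cannot check the scaling or the error rate here. DESeq2 1.42.0, limma 3.58.1 (voom), other scalings, filters and left-out libraries were alternatives.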

Additional observations from a re-analysis of the deposited data

Results flagged for a closer look

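In 4 of the 60 groups of 4 libraries examined for the tested FGF genes, 1 library lay apart from the other 3 by more than Dixon's 95% criterion, and chance alone gives about 1 in 20 such groups. Fgf17 was at 1.78 CPM in intact replicate 3, below the 2.28 to 2.38 CPM of the other intact libraries. Fgf9 was at 2.56 CPM in intact replicate 1, below 3.11 to 3.21 CPM. Spry4 was at 4.53 CPM in intact replicate 1, above 3.58 to 3.68 CPM and among the deleted libraries. Fgfr1op2 was at 41.4 CPM in intact replicate 4, below 49.1 to 50.2 CPM.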

How the results depend on the processing

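All 21 called FGF genes kept their direction in every alternative run for them, and 18 kept the call in each. There were 18 alternatives, but 17 for Fgf5 and Fgf10, which the filter at 1 CPM removed. Spry4, Etv5 and Fgf12 lost it in at least 1. Rises numbered 6 to 11 and falls 12 to 13. Leaving out 1 library gave 7 to 10 rises and 13 falls. Fgf8, Fgfr1 and Spred3 became called in some alternatives, all upward, for Fgf8 for example without deleted replicate 3 (1.01, adjusted p = 0.0217 by edgeR). Only uncalled genes changed sign (log2 fold changes follow). Upper-quartile scaling gave Fgf15 0.023, Fgf13 0.054 and Spred1 0.027, and library totals gave 0.027, 0.057 and 0.031. Fgf13 was at 0.006 with median-ratio scaling and with DESeq2, and at 0.023 with the filter at 1 CPM. Leaving out deleted replicates 2 and 3 together, those with the most meningeal markers, gave Fgf2 -0.104, Fgf7 0.208 and Fgf13 0.008. Leaving out 1 library at a time, Fgf7 ranged from -0.325 to 0.023, Fgf15 from -0.185 to 0.083 and Fgf13 from -0.017 to 0.03. Same-numbered libraries did not deviate together (correlations of -0.455 to 0.005). This gave no sign that the numbers pair the embryos, but cannot exclude it. With a replicate block, 7 FGF genes rose and 13 fell, and Spry4 was at 0.260 (adjusted p = 0.0788, edgeR). Depth limits the ligands: Fgf2, Fgf8 and the 9 genes under the filter had 34 or fewer counts in every library.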
